A study of Homo sapiens with 12 samples.

Results

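The 10 genes described here encode the cyclins and cyclin-dependent kinases (CDKs) that act in G1 and the CIP/KIP proteins that inhibit them. They were chosen by name from the 26485 genes of the deposited count tables and comprise CCND1, CCND2, CCND3, CCNE1, CCNE2, CDK4, CDK6, CDKN1A, CDKN1B and CDKN1C. RNA came from the established ovarian cancer line OVCAR8, of human origin. Cells received vehicle (control), EC359 at 150 nM, trametinib at 100 nM, or both agents at these doses (combination), and were collected after 7 h, with 3 libraries per condition. EC359 inhibits the receptor of the cytokine LIF, and trametinib inhibits the kinase MEK, which activates ERK. All groups share a single cell line, medium and time point, so the values describe that line only. The labels do not say whether libraries of a condition came from separate cultures, and p-values then measure the spread between these samples, which may be technical.

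In G1, growth signals raise the D-type cyclins, which pair with CDK4 or CDK6 and phosphorylate RB1, so that E2F factors can transcribe the E-type cyclins and the genes of DNA replication. Cyclin E with CDK2 then carries the cell into S phase. CDKN1A (p21), CDKN1B (p27) and CDKN1C (p57) bind these complexes and inhibit CDK2, while ERK signaling is a known inducer of CCND1 transcription.

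Library totals lay between 24790392 and 32467283 counted reads, and 14865 genes had enough counts to be tested. The keratins KRT7, KRT8 and KRT18 and the Müllerian factor PAX8 were expressed in every library (73.7 to 123 CPM for PAX8), whereas KRT19 and MUC16 were at or near 0 (at most 2 counts in a library). PTPRC and CD3E, which mark leukocytes, had no count in any library, and the summed level of the 3 endothelial markers lay between 0.113 and 0.589 CPM. The summed level of the 4 fibroblast markers moved with treatment, from 415 to 436 CPM in control to 220 to 233 under EC359, 514 to 526 under trametinib and 315 to 336 under the combination. This sum was carried by COL1A1, while the defining fibroblast marker DCN had no count in any library and COL3A1 had at most 5. LUM, the other marker of the 4, was detected, and it and COL1A1 were the 2 with enough counts to be tested. The part of these markers in the results was not tested.

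Promoter windows of 250 bases before a RefSeq start (GRCh38.p14) were found for 6 of the 10 genes. The 4 printed here belong to CDKN1A, CCNE1 and CDK6, which rose together with EC359, and to CDK4, which fell. They are given 5′ to 3′ on the gene's strand up to the first base that the deposited hg38 annotation places in an exon. The stretch of CDKN1A is chr6:36678464-36678678 on the plus strand, inside the annotated gene, that of CCNE1 is chr19:29811741-29811990 on the plus strand, that of CDK6 is chr7:92836628-92836823 on the minus strand and that of CDK4 is chr12:57752448-57752560 on the minus strand. Capitals mark GGGCGG (the Sp1 motif) or CACGTG (the E-box) on either strand.
CDKN1A: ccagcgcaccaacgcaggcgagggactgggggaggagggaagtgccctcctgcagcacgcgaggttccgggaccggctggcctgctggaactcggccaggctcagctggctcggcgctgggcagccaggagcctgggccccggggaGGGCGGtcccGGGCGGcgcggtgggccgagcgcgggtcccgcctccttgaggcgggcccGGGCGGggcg
CCNE1: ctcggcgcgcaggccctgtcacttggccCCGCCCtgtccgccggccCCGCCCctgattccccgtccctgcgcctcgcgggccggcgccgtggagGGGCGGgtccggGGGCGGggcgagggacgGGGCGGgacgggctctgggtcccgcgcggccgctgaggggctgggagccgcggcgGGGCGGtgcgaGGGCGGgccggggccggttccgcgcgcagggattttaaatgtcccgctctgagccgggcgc
CDK6: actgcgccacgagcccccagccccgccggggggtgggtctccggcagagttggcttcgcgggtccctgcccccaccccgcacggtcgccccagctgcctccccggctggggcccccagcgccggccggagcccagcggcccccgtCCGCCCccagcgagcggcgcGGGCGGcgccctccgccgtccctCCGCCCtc
CDK4: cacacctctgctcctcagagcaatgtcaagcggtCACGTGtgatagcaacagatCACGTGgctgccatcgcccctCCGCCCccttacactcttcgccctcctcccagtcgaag

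The whole window of CCNE1 held 7 matches to GGGCGG. That of CDKN1A held 4, of which 3 lie in full in the printed stretch and the last 2 share 1 base. The whole windows behind the printed stretches of CDK6 and CDK4 held 3 each, of which 1 lies in the printed stretch of CDK4. Another window of CDK6, not printed, held no GGGCGG. This motif is frequent, with at least 1 match in 42.6% of the 35116 windows of the table. The whole window of CDK4 also had 3 matches to CACGTG, which 6.34% of all windows hold, and 2 of the 3 lie in the printed stretch. The 9 windows of the 6 genes held no match, on either strand, to the E2F motif (TTTCGCGC or TTTGGCGC), which 0.968% of all windows hold. The same was true of the AP-1 motif TGANTCA, in 6.57% of all windows, and of the CRE motif TGACGTCA, in 1.65%. The TATA motif TATAAA (10.7% of all windows), the FOXO motif GTAAACA (2.98% of all windows) and the STAT motif TTCNNNGAA (6.57% of all windows) were not matched either. These matches describe the letters of the windows and not bound sites.

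EC359 raised the inhibitors CDKN1A and CDKN1C and, by less than 2-fold, CCNE1 and CDK6. Trametinib lowered CCND1 and raised CDKN1C, both by more than 2-fold. With the combination CDKN1A, CDKN1C, CCNE1 and CDK6 were higher than control and CCND1 was lower. Levels are in CPM, read counts divided by the TMM-scaled library size, and called changes had a Benjamini-Hochberg adjusted p under 0.05 by edgeR's quasi-likelihood test over all genes tested. Of the 10 members, 9 passed the filter on low counts, and CCND2 did not. With EC359, 4 of the 9 were higher than control and 2 were lower, where 30.8% of all genes tested were higher and 30.3% were lower. With trametinib, 2 were higher and 3 were lower, against 13% and 15.2% of all genes. With the combination, 5 were higher and 3 were lower, against 35% and 34.7% of all genes. So many genes were called that a share of called members near these percentages is no feature of the members.

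Changes of at least 2-fold were less common. EC359 raised 2 members (CDKN1A and CDKN1C) at least 2-fold, where 4.19% of all genes rose by as much. It lowered no member to that extent, CCND1 being the lowest at -0.33, where 2.79% of all genes fell. With trametinib, 1 member rose (CDKN1C) and 1 fell (CCND1), against 0.478% and 0.955% of all genes. The combination raised CDKN1A and CDKN1C and lowered CCND1 at this threshold, 2 and 1 members, against 7.27% and 5.87% of all genes. The median absolute log2 fold change of the 9 members was 0.33 with EC359, 0.15 under trametinib and 0.43 with the combination, beside 0.26, 0.11 and 0.34 over all genes tested. The comparisons against control share the 3 control libraries.

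**Figure D1:**
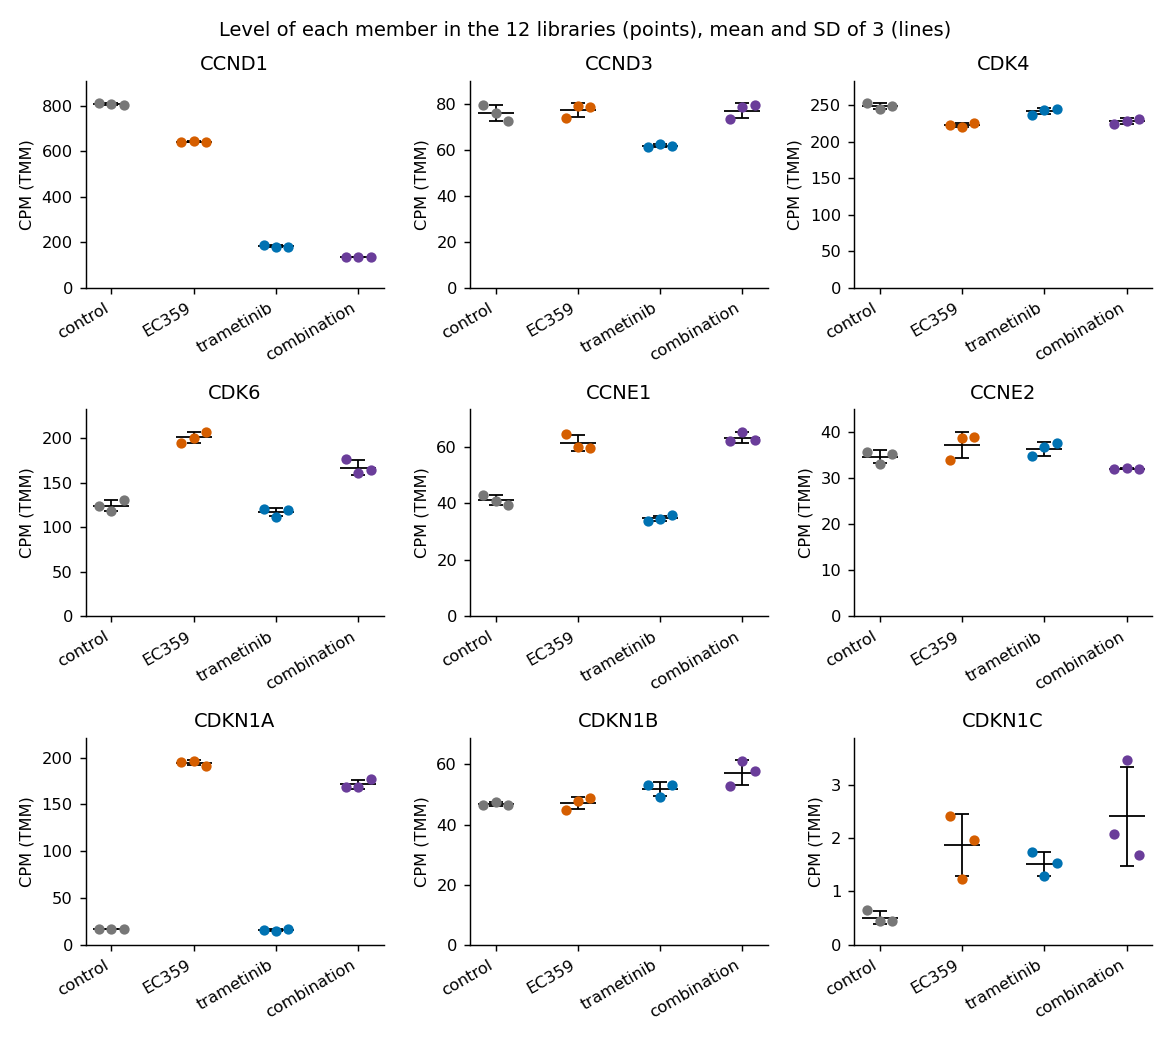
Level of the 9 tested members (CPM after TMM, each vertical axis starting at 0) in the 3 libraries of each condition (points), with the mean and SD of 3 (black lines). CCND1 fell from 808 CPM in control to 184 with trametinib and 135 with the combination, and CDKN1A rose from 16.7 to 195 with EC359 and 172 under the combination.

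CCND1 (cyclin D1, chromosome 11 from 69641105 to 69654474 in hg38) was the most abundant member in control by CPM and by RPKM, and its level split into 4 separate steps. The control libraries had 812, 809 and 803 CPM, and those with EC359 had 641, 646 and 643 CPM. With trametinib they had 188, 181 and 182 CPM, and with the combination 135, 135 and 136 CPM. No library of a condition overlapped with one of another condition, and the order was control, EC359, trametinib and combination. Relative to control, the log2 fold change was -0.33 with EC359 (standard error 0.0219, adjusted p = 1.49e-19), -2.14 with trametinib (standard error 0.0235, adjusted p = 3.8e-56) and -2.58 with the combination (standard error 0.0244, adjusted p = 2.11e-60). CCND1 was thus 4.4-fold lower with trametinib and 5.96-fold lower with the combination. In bulk RNA, fewer cells with a transcript and less of it per cell cannot be told apart, here and for the members that follow.

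CCND3 (cyclin D3, chromosome 6 from 41934933 to 42048894) was lower with trametinib alone. It had 79.3, 76.0 and 72.5 CPM in control, 73.6, 79.0 and 78.8 under EC359, 61.2, 62.6 and 61.5 under trametinib and 73.4, 78.4 and 79.4 under the combination. The trametinib libraries lay below all the others, which overlapped. The log2 fold change with trametinib was -0.30 (standard error 0.0377, adjusted p = 4.17e-09). It was 0.03 with EC359 (95% confidence interval -0.05 to 0.10, adjusted p = 0.57) and 0.02 with the combination (-0.05 to 0.10, adjusted p = 0.581), and both values turned to -0.11 when libraries were scaled to their totals alone, with adjusted p of 0.00958 and 0.0054. That scaling moved the median log2 fold change of all genes from -0.01 to -0.15 with EC359 and to -0.14 with the combination, so these values stand close to that median.

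CCND2 (cyclin D2, chromosome 12 from 4273736 to 4305356) was not detected beyond 1 count, in 1 combination library. In control and under EC359 or trametinib, the count of 0 over the 3 libraries of each condition allows up to 3 counts, or 0.0321 to 0.0381 CPM and 0.00492 to 0.00583 RPKM (CPM per kilobase of exon), a limit that covers counting error only. No comparison between conditions was made for CCND2.

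Among the CDK partners of the D-type cyclins, CDK6 rose with EC359 while CDK4 fell slightly. CDK6 (chromosome 7 from 92604921 to 92836627) had 124, 118 and 130 CPM in control, 194, 200 and 207 under EC359, 120, 112 and 119 under trametinib and 176, 161 and 164 under the combination. All EC359 and combination libraries lay above all control and trametinib libraries, which overlapped with each other. Its log2 fold change was 0.70 with EC359 (standard error 0.037, adjusted p = 6.49e-15) and 0.43 with the combination (standard error 0.0375, adjusted p = 1.23e-10). With trametinib it was -0.08 (adjusted p = 0.118), a value that passed the threshold under 5 of 19 alternatives, among them those without control replicate 2 (-0.12, adjusted p = 0.018) or without combination replicate 1 (adjusted p = 0.0472).

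CDK4 (chromosome 12 from 57747727 to 57752447) moved within a narrow band. It had 253, 245 and 249 CPM in control, 223, 220 and 225 under EC359, 237, 244 and 245 under trametinib and 224, 228 and 232 under the combination. The libraries with EC359, alone or combined, lay below all control libraries. On the log2 scale the fold change was -0.16 with EC359 (standard error 0.0251, adjusted p = 2.03e-07) and -0.13 with the combination (standard error 0.0251, adjusted p = 1.15e-05). With trametinib it was -0.04 (95% confidence interval -0.09 to 0.01, adjusted p = 0.206), although all 3 libraries lay below control.

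The E-type cyclins, the partners of CDK2, did not move together. CCNE1 (chromosome 19 from 29811994 to 29824308) had 42.9, 40.7 and 39.4 CPM in control, 64.6, 59.8 and 59.6 under EC359, 33.8, 34.3 and 35.7 under trametinib and 62.1, 65.4 and 62.3 under the combination. The trametinib libraries were the lowest, the control libraries lay above them, and the EC359 and combination libraries overlapped above both. The log2 fold change was 0.58 with EC359 (standard error 0.0428, adjusted p = 7.22e-18), -0.24 with trametinib (standard error 0.0452, adjusted p = 2.02e-05) and 0.63 with the combination (standard error 0.0427, adjusted p = 1.76e-19). CCNE1 with EC359 thus reached 1.5-fold the control level, and with the combination 1.54-fold.

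CCNE2, on chromosome 8, stayed near its control level. It had 35.7, 33.2 and 35.3 CPM in control, 33.9, 38.7 and 39.1 under EC359, 34.7, 36.8 and 37.6 with trametinib, and 32.1, 32.2 and 32.0 under the combination. The combination libraries were below all the others, which overlapped. The log2 fold change of the combination against control was -0.11 (standard error 0.0516, adjusted p = 0.0492), at the threshold, and this call was lost under 13 of 19 alternatives with adjusted p up to 0.164. With EC359 it was 0.10 (adjusted p = 0.0708), and without EC359 replicate 1, the lowest of the 3, it was 0.17 with an adjusted p of 0.00522.

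CDKN1A (p21, chromosome 6 from 36676460 to 36687339) changed most of all members. Control libraries had 16.5, 16.5 and 17.0 CPM, and trametinib libraries had 15.5, 14.7 and 16.9 CPM. With EC359 they had 196, 197 and 191 CPM, and with the combination 169, 168 and 177 CPM. Control and trametinib overlapped, and both groups with EC359 lay far above them without overlapping each other. Its log2 fold change was 3.54 with EC359 (standard error 0.0394, adjusted p = 4.72e-57), or 11.7-fold, and 3.36 with the combination (standard error 0.0398, adjusted p = 9e-56), or 10.3-fold. With trametinib it was -0.08 (95% confidence interval -0.19 to 0.03, adjusted p = 0.299).

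CDKN1C (p57, chromosome 11 from 2883218 to 2885765) was scarce, with 14.5 to 93 counts per library, and rose with each treatment. It had 0.643, 0.444 and 0.441 CPM in control, 2.41, 1.24 and 1.97 under EC359, 1.75, 1.29 and 1.52 under trametinib and 2.08, 3.47 and 1.69 under the combination. All treated libraries lay above all control libraries, and the treated groups overlapped with one another. On the log2 scale the fold change was 1.87 with EC359 (standard error 0.284, adjusted p = 1.75e-07), 1.59 with trametinib (standard error 0.286, adjusted p = 1.66e-05) and 2.25 with the combination (standard error 0.277, adjusted p = 9.06e-10). The annotation lists this gene on the reference chromosome and on 1 alternate scaffold, and how reads that fit both copies were counted was not tested, so its counts are less certain than those of the other members.

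CDKN1B (p27, chromosome 12 from 12717270 to 12722382) rose slightly with trametinib and the combination. It had 46.3, 47.6 and 46.5 CPM in control, 44.8, 47.8 and 48.7 under EC359, 53.2, 49.2 and 53.1 under trametinib and 52.7, 61.0 and 57.9 under the combination. Trametinib and combination libraries lay above all control libraries and overlapped each other. The log2 fold change was 0.15 with trametinib (standard error 0.0446, adjusted p = 0.00793) and 0.29 with the combination (standard error 0.0448, adjusted p = 9.66e-08). The call with trametinib was lost without trametinib replicate 1 (adjusted p = 0.0571). With EC359 the change was 0.01 (95% confidence interval -0.08 to 0.10, adjusted p = 0.851) and, on library totals alone, -0.12 with an adjusted p of 0.0165.

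**Figure D2:**
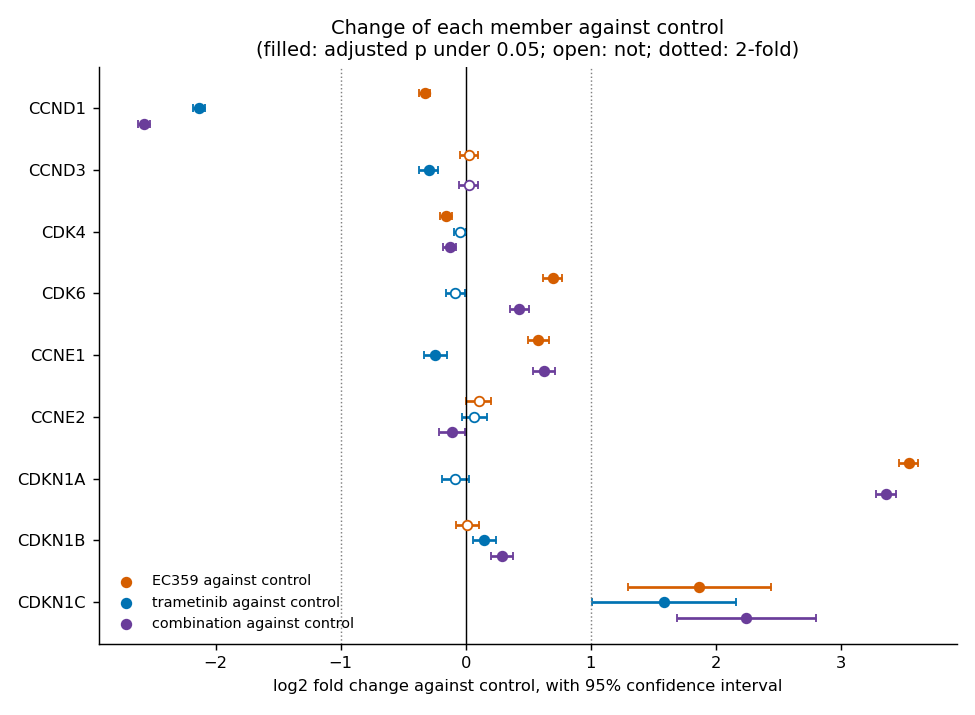
Log2 fold change of the 9 tested members against control (horizontal axis) with EC359, trametinib or the combination, with 95% confidence intervals; filled points had an adjusted p under 0.05. CDKN1A stands at 3.54 and 3.36 with EC359 and the combination and CCND1 at -2.14 and -2.58 with trametinib and the combination, while the intervals of CDKN1C are the widest.

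Levels of different genes were compared per exonic length, as RPKM. In control, CCND1 made up 88.7% ± 0.392 (SD, n = 3) of the summed D-type cyclins, and CDKN1B rather than CDKN1A was the most abundant CIP/KIP gene, at 18.6 ± 0.271 RPKM against 6.32 ± 0.115 (SD, n = 3). With EC359 the order of these inhibitors was turned, with 18.7 ± 0.822 RPKM for CDKN1B and 73.8 ± 1.09 for CDKN1A (SD, n = 3), and CDKN1A made up 79.0% ± 0.779 of the CIP/KIP sum. CDKN1C contributed little, between 1.04% and 2.88% of that sum on average in the 4 conditions.

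The summed D-type cyclins were at 212 ± 2.13 RPKM in control, 174 ± 1.51 under EC359, 62.4 ± 0.798 under trametinib and 56.0 ± 1.08 under the combination (SD, n = 3). The summed CIP/KIP inhibitors were at 25.1 ± 0.183 RPKM in control, 93.5 ± 0.691 under EC359, 27.3 ± 1.34 under trametinib and 89.1 ± 2.59 under the combination (SD, n = 3). The cyclin sum was low in both groups that received trametinib, and the inhibitor sum was high in both groups that received EC359.

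The ratio of these sums was highest in the combination. Per 100 RPKM of D-type cyclins there were 11.8 ± 0.162 RPKM of CIP/KIP inhibitors in control, 53.6 ± 0.421 under EC359, 43.8 ± 2.09 under trametinib and 159 ± 1.59 under the combination (SD, n = 3). For the leading genes alone, CDKN1A stood at 3.36 ± 0.0789 RPKM per 100 RPKM of CCND1 in control and at 206 ± 4.97 in the combination (SD, n = 3). These ratios are descriptions of RNA, with no test, and do not depend on the scaling of a library.

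The kinases differed between conditions in composition more than in sum. CDK4 and CDK6 together had means of 135, 128, 131 and 128 RPKM in control, EC359, trametinib and combination (n = 3 each, SD of at most 2.21). Within that sum CDK6 made up 7.80% ± 0.309 in control and 13.3% ± 0.326 with EC359 (SD, n = 3). The E-type cyclins summed to 33.8 ± 1.16 RPKM in control, 45.2 ± 0.401 under EC359, 31.1 ± 1.01 under trametinib and 44.3 ± 0.968 under the combination (SD, n = 3). CCNE1 made up 62.3% ± 1.16 of that sum in control, 73.4% ± 0.513 with the combination and 57.1% ± 0.540 with trametinib (SD, n = 3).

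**Figure D3:**
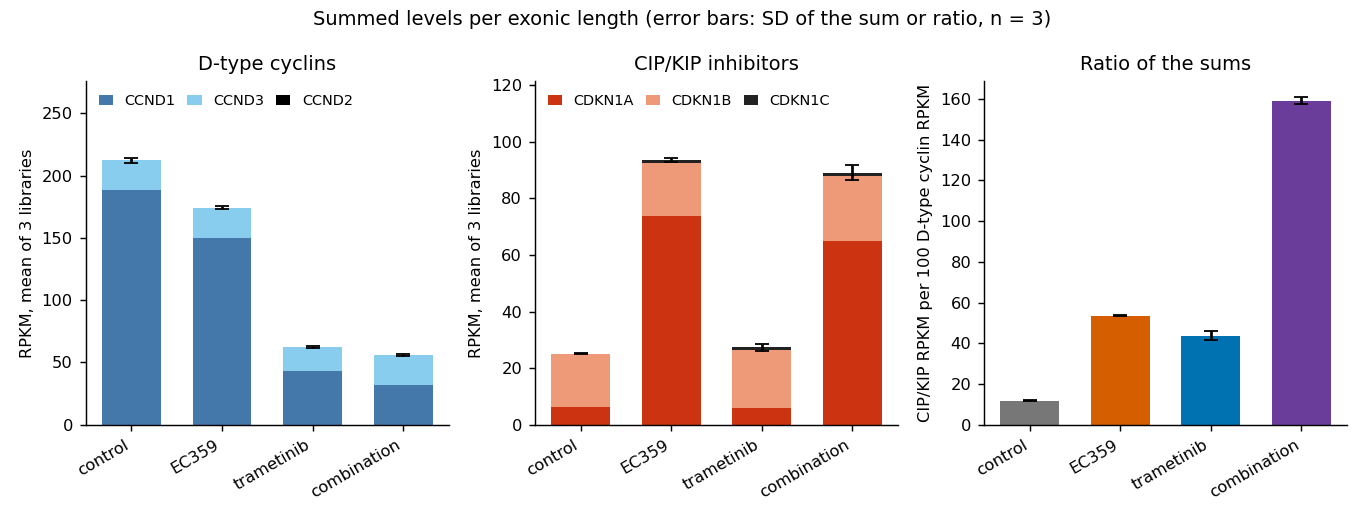
Summed RPKM of the D-type cyclins (left) and the CIP/KIP inhibitors (middle), stacked by gene as means of 3 libraries, and their ratio (right), with the SD of the sum or ratio as error bars. The ratio is 11.8 in control, 53.6 under EC359, 43.8 under trametinib and 159 with the combination, and CCND2 is too low to be seen.

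The combination was then compared with each agent. Against EC359 alone, 1 member was higher (CDKN1B) and 4 were lower (CCND1, CDKN1A, CDK6 and CCNE2), where 24.1% and 25.2% of all genes were higher and lower. CCND1 fell further, by a log2 fold change of -2.25 (standard error 0.0244, adjusted p = 8.93e-57). CDKN1A was 1.13-fold lower (log2 fold change -0.18, standard error 0.0297, adjusted p = 7.83e-07), CDK6 was 1.2-fold lower and CCNE2 was 1.16-fold lower than with EC359. CCND3, CDK4, CCNE1 and CDKN1C did not pass the threshold, with log2 fold changes of 0.00, 0.03, 0.05 and 0.38, and the interval of CDKN1C was wide, from -0.11 to 0.86.

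Against trametinib alone, 6 members were higher in the combination (CDKN1A, CDKN1C, CDKN1B, CCNE1, CCND3 and CDK6) and 3 were lower (CCND1, CDK4 and CCNE2), where 35.3% and 32.9% of all genes were higher and lower. CDKN1A was 10.9-fold higher (log2 fold change 3.45, standard error 0.0405, adjusted p = 9.59e-56), CCNE1 was 1.83-fold higher and CCND1 was 1.36-fold lower. CDKN1B was higher by a log2 fold change of 0.14 (adjusted p = 0.00434), which turned to -0.02 on library totals alone and was lost without trametinib replicate 2 (adjusted p = 0.0503) or combination replicate 2 (adjusted p = 0.0713). The difference of CDKN1C, 0.66 (adjusted p = 0.0149), was lost without combination replicate 2 (0.30, adjusted p = 0.31) or trametinib replicate 2 (adjusted p = 0.0705), and the groups overlapped for both genes. EC359 and trametinib were also compared directly, and 5 members were higher with EC359 (CCND1, CCNE1, CDKN1A, CCND3 and CDK6) and 2 lower (CDKN1B and CDK4), against 31.6% and 31.2% of all genes.

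Whether the combined change differed from the sum of the single-agent changes on the log2 scale was tested as an interaction. It was positive for 2 members (CCNE1 and CCND3) and negative for 4 (CDKN1C, CCND1, CDK6 and CCNE2), where it was positive for 14.4% and negative for 15.9% of all genes tested, and its median absolute size was 0.18 over the members and 0.17 over all genes. For CCNE1 and CCND3 it was 0.29 (adjusted p = 0.000195) and 0.29 (adjusted p = 1.5e-05). Trametinib changed CCNE1 by -0.24 and CCND3 by -0.30 without EC359, and by 0.05 and 0.00 in its presence. For CDKN1C it was -1.21 (standard error 0.376, adjusted p = 0.0112), where the single changes added up to 3.46 and the combination reached 2.25.

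Of the remaining interactions, those of CCND1, CDK6 and CCNE2 were negative, and the others did not pass the threshold. That of CCND1 was -0.11 (adjusted p = 0.00732), a combined change of -2.58 beside a sum of -2.46. Those of CDK6 and CCNE2 were -0.18 (adjusted p = 0.00926) and -0.28 (adjusted p = 0.0017). CDKN1A had an interaction of -0.10 (95% confidence interval -0.23 to 0.03, adjusted p = 0.247), CDK4 of 0.07 (adjusted p = 0.107) and CDKN1B of 0.13 (adjusted p = 0.119, and 0.0203 without combination replicate 1).

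**Figure D4:**
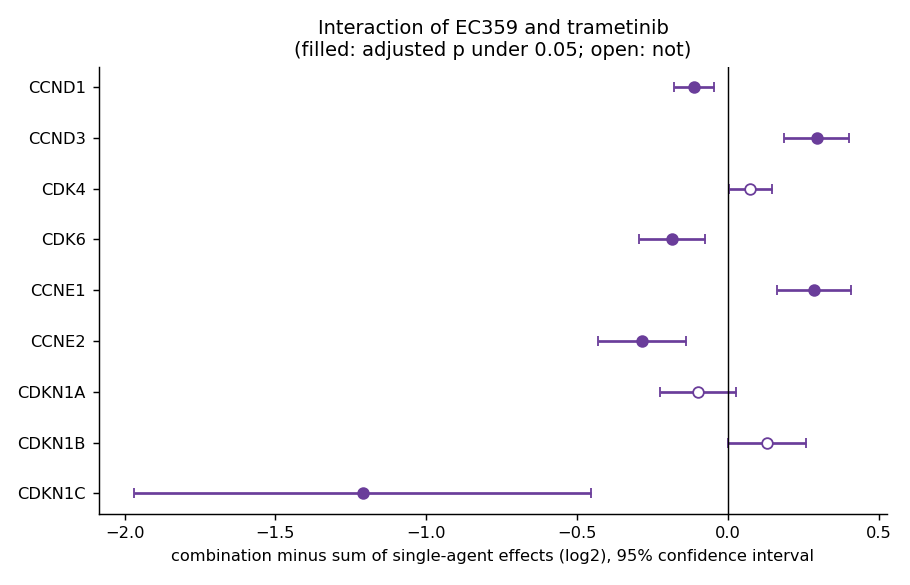
Interaction of EC359 and trametinib for the 9 tested members, as the log2 fold change of the combination minus the sum of the single-agent log2 fold changes, with 95% confidence intervals; filled points had an adjusted p under 0.05. CCND3 and CCNE1 lie above 0 at 0.29 each and CDKN1C lies lowest at -1.21.

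The rest of the G1/S machinery was read from a list of 33 other genes, all of which were tested. With EC359, 16 of them were higher and 10 lower, with trametinib 7 were higher and 7 lower, and with the combination 20 were higher and 11 lower. Their median log2 fold changes were 0.21, 0.00 and 0.20, beside -0.01, 0.00 and -0.01 over all genes. These counts, and those of the parts of the list that follow, stand beside 30.8% higher and 30.3% lower of all genes with EC359, 13% and 15.2% with trametinib, and 35% and 34.7% with the combination. Among the 10 E2F and DP factors, which carry transcription at the G1/S transition, 7 rose and 3 fell with EC359, 2 rose and 5 fell with trametinib, and 7 rose and 3 fell with the combination. E2F4, E2F5 and TFDP1 were the 3 that fell with EC359 and the 3 that fell with the combination. With trametinib E2F2 and TFDP2 rose and E2F3, E2F4, E2F6, E2F7 and TFDP1 fell. The 3 forkhead factors FOXO1, FOXO3 and FOXO4, known activators of CDKN1B transcription, were all higher with EC359 and with the combination.

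Among the genes of this list past 2-fold, RB1, the pocket protein that cyclin D kinases phosphorylate, went from 6.71 ± 0.145 CPM in control to 15.2 ± 0.178 with EC359 and 26.0 ± 0.796 with the combination, and was at 6.63 ± 0.665 with trametinib (SD, n = 3). SKP2, the F-box protein that marks CDKN1B for degradation, fell from 44.1 ± 1.84 CPM in control to 14.3 ± 0.162 with EC359 and 11.5 ± 0.833 under the combination (SD, n = 3), log2 fold changes of -1.63 (adjusted p = 2.03e-32) and -1.94 (adjusted p = 1.33e-35). FOXO3 rose from 18.8 ± 0.755 CPM to 56.6 ± 2.62 with EC359 and 66.7 ± 0.573 under the combination (SD, n = 3). E2F5, a partner of pocket proteins, fell by 0.73 with EC359 and by 1.10 with the combination on the log2 scale. E2F1 and FOXO1, named here after their values were seen, rose past 2-fold with the combination, by 1.07 each. With EC359 alone these genes rose by 0.74 and 0.78.

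The INK4 inhibitors, which bind CDK4 and CDK6, moved in opposite directions. CDKN2C (p18) fell from 41.9 ± 1.31 CPM in control to 12.6 ± 0.678 with EC359 and 15.5 ± 0.615 with the combination and rose to 56.1 ± 1.87 with trametinib (SD, n = 3; adjusted p of 8.57e-34, 9.03e-31 and 6.56e-11). CDKN2B (p15) rose with every treatment, from 11.6 ± 0.732 CPM to 15.5 ± 0.962, 18.8 ± 1.10 and 27.2 ± 1.60 with EC359, trametinib and the combination (SD, n = 3). Of the 4 INK4 genes, 3 were higher (CDKN2A, CDKN2B and CDKN2D) and 1 lower (CDKN2C) with the combination. Genes of these small counts that fall outside the naming rule are named after their values were seen, here and in the lists that follow.

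**Figure D5:**
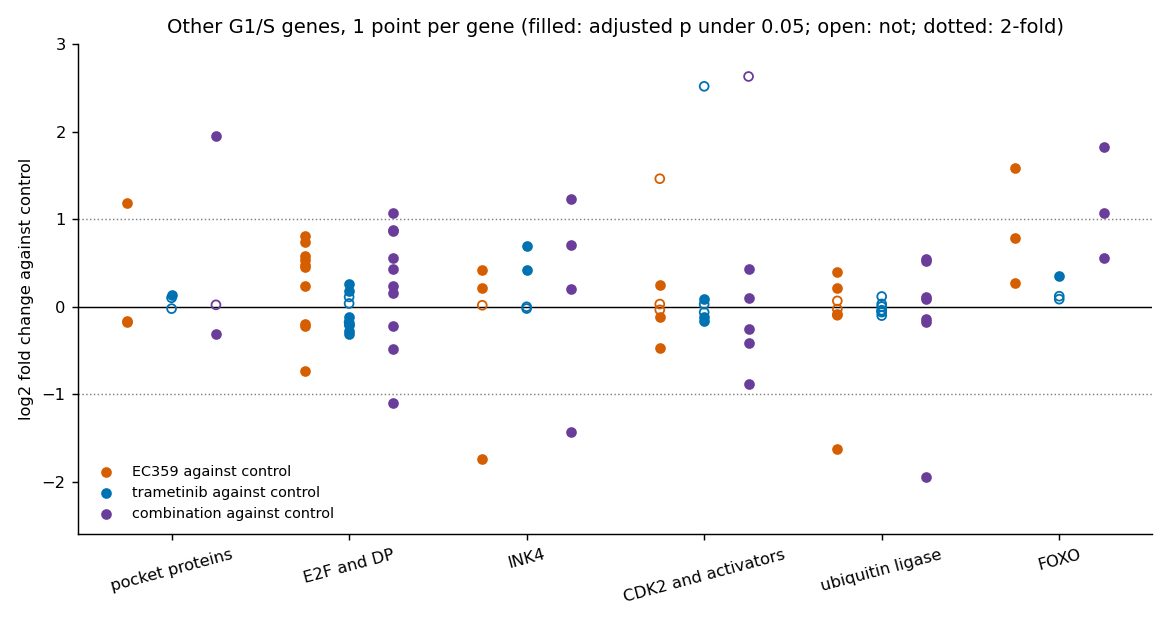
Log2 fold change against control (vertical axis) of the 33 other G1/S genes, 1 point per gene, grouped by role, with EC359, trametinib or the combination; filled points had an adjusted p under 0.05. RB1 and FOXO3 lie above 1 with EC359 and the combination and SKP2 and CDKN2C below -1, while the highest open points belong to CDK7, named after its values were seen, whose count ranged from 22.5 to 450 between libraries.

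CDKN1A is a textbook target of p53, and 17 of 18 other p53 target genes were tested. With EC359, 12 of these were higher and 2 lower, with trametinib 7 and 2, and with the combination 12 and 2, and their median log2 fold changes were 0.43, 0.11 and 0.36, beside -0.01, 0.00 and -0.01 over all genes. The shares of all genes called higher and lower were 30.8% and 30.3% with EC359, 13% and 15.2% with trametinib, and 35% and 34.7% with the combination. The largest increase was in BBC3, which encodes the BH3 protein PUMA, at 3.03 ± 0.364 CPM in control, 39.9 ± 1.29 under EC359, 4.81 ± 0.844 under trametinib and 49.0 ± 1.64 under the combination (SD, n = 3). SESN2, a stress-induced inhibitor of mTORC1, rose by 1.87 on the log2 scale with EC359 (adjusted p = 4.06e-43). BTG2, an antiproliferative gene, rose from 2.53 ± 0.230 CPM to 10.1 ± 0.832 with EC359 and 13.2 ± 0.199 under the combination (SD, n = 3). PPM1D, a phosphatase that acts on p53, had log2 fold changes of 0.92 with EC359 and 1.83 under the combination. TNFRSF10B, a death receptor, rose by 1.33 with EC359 and fell by 0.57 with trametinib, where AEN also fell, and TP53INP1 was at 0.379 to 0.824 CPM on average in the 4 conditions. RRM2B and XPC were the 2 that fell with EC359 and the 2 that fell with the combination.

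The E2F-driven genes of S phase were called in both directions. Of 15 such genes, 7 were higher and 3 lower with EC359, 4 and 1 with trametinib, and 7 and 4 with the combination, with median log2 fold changes of 0.06, 0.04 and 0.04, and none of these genes reached 2-fold in a comparison with control. Over all genes tested, 30.8% were higher and 30.3% lower with EC359, 13% and 15.2% with trametinib, and 35% and 34.7% with the combination. GINS1 and TYMS were lower with EC359 and with the combination, and MCM3 and MCM6 with the combination. With trametinib MCM3 was lower, and MCM2, MCM4 and MCM5 were among the genes that were higher.

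The genes most like CDKN1A, CDKN1C and CCND1 were sought among 9405 genes of at least 10 CPM on average, by the Euclidean distance between centred condition means of log2(CPM + 0.1). Nearest to CDKN1A were TRIB1, YPEL2 and JUN, at distances of 0.163, 0.359 and 0.373. Nearest to CCND1 were HMGA2, NT5E and ARHGAP31, at 0.303, 0.358 and 0.503, and nearest to CDKN1C were TNFRSF9, CORO7-PAM16 and MAP1A, at 0.306, 0.466 and 0.521. CORO7-PAM16, a readthrough gene that shares exons with its neighbours, had fitted log2 fold changes of 0.54, 0.66 and 0.58 with EC359, trametinib and the combination, below those of CDKN1C, so its place rests on the means of logs. TRIB1 had fitted log2 fold changes of 3.49 under EC359, -0.21 under trametinib and 3.14 under the combination, and HMGA2 had -0.44, -1.99 and -2.85. The likeness is over 4 condition means and describes these libraries only.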

How the data were processed

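Polyadenylated RNA was made into stranded libraries and sequenced from both ends for 100 bp. The submitters' processing notes name bcl2fastq and HISAT2, with versions not given in the sources used here. Per the file headers, the authors ran featureCounts 1.5.0-p1 (reverse-stranded pairs, mapping quality of at least 2, hg38 annotation), with fractions for reads of several placements or genes. The deposited values are estimated counts without normalization and were rounded to whole numbers here. In each library 12.4% to 15.1% of genes held a fraction.

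In R 4.3.3, genes were filtered with filterByExpr of edgeR 4.0.16 (minimum count 10, total 15), scaled by TMM (factors 0.947 to 1.06), and fitted over all 12 libraries with a robust quasi-likelihood model. Calls had a Benjamini-Hochberg adjusted p under 0.05 over 14865 genes. Standard errors were obtained from the fold change and the F statistic. RPKM used the exonic length on the reference chromosome. Libraries of a condition differed beyond sampling noise, and none was a duplicate. The scripts were tested on simulated data.

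All members are named, with up to 12 genes of the pathway lists past both thresholds against control and the 3 genes nearest to each member past them. Members and lists were chosen with earlier results of these data known. Alternatives were DESeq2 1.42.0, its size factors, library totals, other filters, only the groups compared, a replicate block and each library left out. 1 gene of the S phase list is not reported by name here.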

Additional observations from a re-analysis of the deposited data

Results flagged for a closer look

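For 6 members the change under the combination differed from the sum of the single-agent changes, by the interaction term of edgeR's quasi-likelihood test (Benjamini-Hochberg adjusted over all genes tested). The term was positive for 2 and negative for 4 of the 9 members tested, and by the same test positive for 14.4% and negative for 15.9% of all genes. Its median absolute size was 0.18 over the members and 0.17 over all genes, so the typical size of the term is no feature of the members. The interaction on the log2 scale was 0.29 for CCND3, 0.29 for CCNE1, -0.11 for CCND1, -0.18 for CDK6, -0.28 for CCNE2 and -1.21 for CDKN1C. For CDKN1C the counts were low (14.5 to 93 per library). No explanation was tested.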

How the results depend on the processing

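Of 63 results for single members, 51 kept the same call, called or not, under all alternatives that could be run for them, and CDKN1A and CCND1 kept theirs in each comparison in which they were called. Scaling to library totals alone moved most: CCND3 and CDKN1B with EC359 against control turned to -0.11 and -0.12, CCND3 with the combination against control to -0.11, CDKN1B in the combination against trametinib to -0.022 and CCNE2 in EC359 against trametinib to -0.12. With that scaling 4 members instead of 2 were lower with EC359 than control, and 2998 genes instead of 4703 were higher and 7213 instead of 4633 lower in EC359 against trametinib. The summed D-type cyclins became 222, 166, 66.2 and 53.1 RPKM and the summed CIP/KIP inhibitors 26.2, 88.9, 29.0 and 84.4 RPKM in control, EC359, trametinib and combination. This scaling moved the median log2 fold change of all genes from -0.01 to -0.15 in EC359 against control and to -0.14 in the combination against control. The values of CCND3 and CDKN1B with EC359 stand close to that median. In EC359 against trametinib the median moved from -0.01 to -0.17, and in the combination against trametinib from 0.00 to -0.16. With at least 10 counts required in every library, 236 genes instead of 415 were at least 2-fold lower with EC359 and 33 instead of 71 at least 2-fold higher with trametinib, of fewer genes tested (13470).

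Leaving out 1 library gave 1 to 2 members lower in EC359 against trametinib, the call of CDKN1B being lost without EC359 replicate 1, and 1 to 2 members higher with trametinib than control. Same-numbered libraries of different conditions did not deviate together in the median (r -0.01 over 18 pairs, -0.21 to 0.27), and 6 of 12 libraries correlated best with their own number. Pairs with different numbers had a median r of -0.02 (36 pairs, -0.27 to 0.23). Whether libraries group across conditions under other numbers was not tested. With the replicate block, CCNE2 in the combination against control was lost (-0.11, adjusted p = 0.0518), and CDK6 with trametinib passed (-0.08, adjusted p = 0.0497). CDKN1C, at 14.5 to 93 counts, is limited by depth.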
